A study of Mus musculus with 2 samples.

Results

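The genes described here are 7 genes that endothelial cells, the lining of blood vessels, use to capture white blood cells or to present signals to them: the selectins Sele and Selp, the immunoglobulin-family adhesion molecules Icam1, Icam2 and Vcam1, the chemokine-binding receptor Ackr1 and the secreted glycoprotein Lrg1. They were taken by symbol, and all 7 were found among the 22480 gene symbols shared by both count tables. Their levels were read in single cells of mouse spinal cord, first in endothelial-like cells and then in pericytes, fibroblasts and myeloid cells.

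There were 2 single-cell libraries, 1 from cord 3 days post injury (3 dpi) and 1 from sham animals, the controls. Each pooled 5 male and 5 female C57BL/6 mice aged 8 weeks, and no other genotype or agent is named. An 8 mm length of cord with the lesion level at its middle was digested to single cells for droplet capture with the 10X Chromium 3′ chemistry, which counts unique molecular identifiers (UMIs) near the 3′ end of each transcript. How the cord was injured is not stated in the labels. Each group was a pool in 1 library, so the spread between mice is not seen, no test could be made, and library and injury cannot be told apart.

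Leukocytes leave the blood in steps. Selectins on the vessel wall catch flowing cells and let them roll, chemokines held on the wall activate leukocyte integrins, and the integrins then bind ICAM and VCAM molecules, which brings the cells to arrest before they cross the wall. E-selectin (Sele) is made on demand by inflamed endothelium, and P-selectin (Selp) is also stored in endothelial granules and in platelets. ICAM2 is a steady component of resting endothelium, whereas ICAM1 and VCAM1 are known for their induction by cytokines. ACKR1 binds chemokines without classical signalling and marks venules in many tissues, and LRG1 modifies TGF-beta signalling in endothelium and is also stored in neutrophil granules.

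The sequences just before annotated starts of these genes are shown. They were chosen because NF-kB and STAT factors are the textbook regulators of several of these genes and the genes were high together at 3 dpi. RefSeq (GRCm38.p6) promoters were at hand for 5 of the 7 genes, and Icam2 and Vcam1 had no entry. Each run below is the 250 bases before the annotated start, 5′ to 3′ on the gene's strand. For Sele the start used lies inside the gene's annotated span, chr1:164039614-164058487, and not at its edge. Capitals mark matches on either strand to GGNNNTTCC, a loose form of an NF-kB site, or to TTCNNNGAA, the core of a STAT site. Sele lies on the plus strand at chr1:164047984-164048233, Icam1 on the plus strand at chr9:21015690-21015939, Ackr1 on the minus strand at chr1:173333504-173333753 and Lrg1 on the minus strand at chr17:56121947-56122196.
Sele: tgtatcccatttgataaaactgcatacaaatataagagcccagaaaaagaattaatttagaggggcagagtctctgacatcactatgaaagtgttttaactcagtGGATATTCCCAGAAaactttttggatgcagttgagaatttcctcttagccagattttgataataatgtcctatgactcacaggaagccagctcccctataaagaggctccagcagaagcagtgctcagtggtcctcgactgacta
Icam1: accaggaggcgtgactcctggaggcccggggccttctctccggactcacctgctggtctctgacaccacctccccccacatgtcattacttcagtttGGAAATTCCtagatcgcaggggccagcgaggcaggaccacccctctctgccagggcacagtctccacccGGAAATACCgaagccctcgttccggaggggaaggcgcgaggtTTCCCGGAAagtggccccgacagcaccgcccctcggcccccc
Ackr1: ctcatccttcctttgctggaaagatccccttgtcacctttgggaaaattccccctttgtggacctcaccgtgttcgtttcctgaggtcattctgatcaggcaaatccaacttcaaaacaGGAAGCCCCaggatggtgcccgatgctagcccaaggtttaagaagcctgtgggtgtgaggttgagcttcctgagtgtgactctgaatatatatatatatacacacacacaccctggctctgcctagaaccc
Lrg1: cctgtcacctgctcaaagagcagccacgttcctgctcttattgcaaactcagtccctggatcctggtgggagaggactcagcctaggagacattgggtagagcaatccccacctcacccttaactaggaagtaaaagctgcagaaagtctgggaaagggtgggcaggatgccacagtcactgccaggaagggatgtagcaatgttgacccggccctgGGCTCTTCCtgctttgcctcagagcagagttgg
Motifs were searched in the whole 300-base windows, from 250 bases before to 50 after each start. The loose NF-kB pattern was in all 5 promoters and in 18.5% of the 32851 promoters of the table. In Icam1 it matched on both strands from position -153, where the printed run reads GGAAATTCC. It also matched there on the minus strand from -84, where the printed run reads GGAAATACC. In Sele the printed run reads GGATATTCC from -145. The match in Selp began at -14, that in Ackr1 at -131 and that in Lrg1 at -33. The STAT pattern was in Icam1 (from -42) and in Sele (from -140, overlapping the NF-kB match), against 8.30% of all promoters. An AP-1 pattern, TGANTCA, was in Sele and Selp (7.81% of all promoters), the letters TATAAA in Sele before the start and in Icam1 and Lrg1 after it (13.6%), and a C/EBP pattern, TTGCNNAA, in none of the 5 (10.8% of all). These matches describe letters in the windows and not binding.

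The 3 dpi library held 149291783 UMIs in 13594 barcodes and the sham library 76889038 in 10138. After filters, 394 of 12108 kept cells at 3 dpi and 1403 of 9306 in sham were called endothelial-like from clustering, which did not use the 7 genes, with median depths of 13494.5 UMIs at 3 dpi and 3218 in sham. The name was given from 15 endothelial markers, so their levels describe the class and are no separate check of the name. All 15 were detected in both libraries, led by Cldn5 at 2786 CPM (UMIs per 1000000 UMIs of the class) at 3 dpi and 8929 CPM in sham. The summed markers came to 10177 CPM at 3 dpi and 31510 CPM in sham. The class was made of different clusters in each library, cluster 19 with 362 of the 3 dpi cells and cluster 4 with 1400 of the sham cells. The part of this naming in the values below was not tested. A mixed endothelial and pericyte cluster of 6 3 dpi and 326 sham cells was left unnamed. There were 39 barcode sequences in both libraries, carried by 1 endothelial-like cell at 3 dpi and 4 in sham.

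Endothelial-like cells held more transcript of 6 of the 7 adhesion genes at 3 dpi than in sham, and none was lower by the size rule used here, a 2-fold difference with 10 CPM added to both libraries. Of the 7029 genes measured in these cells (those that reached 20 CPM in either library), 8.32% were higher, 13.6% lower and 21.9% either, and the median log2 ratio of all of them was -0.26. Sele, Selp, Ackr1 and Lrg1 reached 20 CPM at 3 dpi only, so they could be called in 1 direction at most. The same limit holds for every listed gene that reached 20 CPM in 1 library only. Counts over these and the other lists are descriptions. The genes fell into 3 kinds. Sele, Selp, Ackr1 and Lrg1 were at or near 0 in sham and present at 3 dpi, Icam1 and Vcam1 were present in both libraries and about 2-fold higher at 3 dpi, and Icam2 was abundant in both and did not pass the rule. Brackets give 95% intervals for counting error only, without the spread between cells, mice or libraries.

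**Figure D1:**
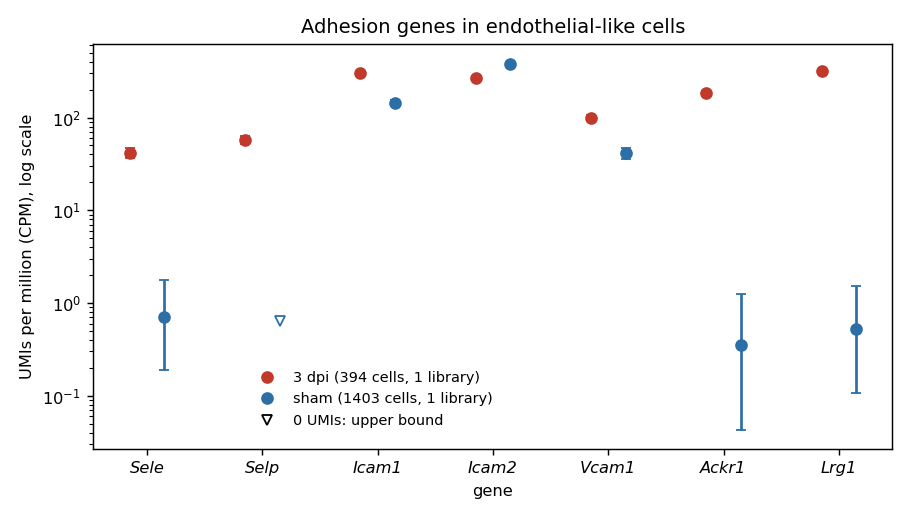
Level of each gene in endothelial-like cells of the 3 dpi library (red, left of each pair) and the sham library (blue, right), in CPM on a log scale, with 95% Poisson intervals. The open triangle is the upper bound for Selp, which had 0 UMIs in sham; Sele, Ackr1 and Lrg1 lie below 1 CPM in sham, and Icam2 is the only gene that lies higher in sham.

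Both selectins were nearly confined to the 3 dpi library. Sele, which slows rolling cells, had 290 UMIs and 41.4 CPM [36.8 to 46.4] at 3 dpi, against 4 UMIs and 0.698 CPM [0.190 to 1.79] in sham. Its level was 59.3-fold higher at 3 dpi [22.9 to 219]. Selp, the rapidly mobilised selectin, had 406 UMIs and 57.9 CPM [52.4 to 63.8] at 3 dpi, against 0 UMIs in sham, where 3 counts over the class would give 0.524 CPM. Measured against that floor its level was at least 110.6-fold higher at 3 dpi, and the exact 95% interval of the ratio, which allows more counts than the floor, began at 89.5. Platelets also make Selp, and 6 platelet markers summed to 18.3 CPM in 3 dpi endothelial-like cells and 9.95 CPM in sham ones, led in both by Itga2b (14.0 CPM at 3 dpi and 9.43 CPM in sham), while Ppbp, Gp1bb, Treml1 and Gp6 were at 0 in sham. Their part in the Selp level was not tested.

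Among the integrin-binding molecules, Icam1, the ligand of LFA-1 and Mac-1, stood at 302.8 CPM [290.0 to 315.9] at 3 dpi and 145.2 CPM [135.5 to 155.5] in sham, 2.08-fold higher [1.92 to 2.26]. Vcam1, the ligand of the integrin VLA-4, had 98.0 CPM [90.8 to 106] at 3 dpi and 41.0 CPM [35.9 to 46.6] in sham, 2.39-fold higher [2.06 to 2.78]. Both lie close to the 2-fold rule, with log2 ratios of 1.01 and 1.08, and neither call is firm: Icam1 fell just short of the rule with a stricter cell filter and was at 0.89 with doublets kept and 0.53 in male-derived cells, and Vcam1 was at 0.98 with doublets kept, 0.19 in male-derived cells and 0.27 in the few cells without myeloid UMIs. Other alternatives moved the log2 ratios up, for Icam1 to 1.83 with the mean of per-cell CPM, 2.60 in cells without myeloid UMIs and 5.58 with a marker gate that kept 59 cells at 3 dpi and 18 in sham, and for Vcam1 to 1.58 with the mean of per-cell CPM and 3.13 with that gate. Icam2, the constitutive LFA-1 ligand, had 266.5 CPM [254.6 to 278.9] at 3 dpi and 377.2 CPM [361.5 to 393.5] in sham, a log2 ratio of -0.49. Its ratio lay below 0 in all 14 alternatives tried, and it passed the rule in none of them.

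The remaining members had the largest ratios of the 7. Ackr1, the chemokine-binding receptor of venules, had 1275 UMIs and 181.9 CPM [172.1 to 192.2] at 3 dpi, against 2 UMIs and 0.349 CPM [0.0423 to 1.26] in sham, a ratio of 521 [144 to 4307]. Lrg1 had 2243 UMIs and 320.0 CPM [306.9 to 333.6] at 3 dpi, against 3 UMIs and 0.524 CPM [0.108 to 1.53] in sham, a ratio of 611 [209 to 2965]. Of the measured genes, 99.9% had a lower log2 ratio than Lrg1 and 99.8% a lower one than Ackr1. Among the 7 genes on the log2 scale with 10 CPM added, the order of the differences ran from Lrg1 (4.97) through Ackr1 (4.21), Selp (2.76), Sele (2.26), Vcam1 (1.08) and Icam1 (1.01) to Icam2. With median-of-ratios scaling, under which the measured genes had a median of 0.06 on the log2 scale, against -0.26 with CPM, the same 6 genes were called, and of all genes called the share that was higher was 61.1%, against 37.9% with CPM.

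RNA carried over from neutrophils was estimated from their markers. Neutrophils are the other Lrg1-rich class, and their markers S100a8, S100a9, Retnlg and Csf3r reached 0.179% of the neutrophil level in 3 dpi endothelial-like cells. If neutrophil RNA came over in fixed proportions, that share would bring 1.12 CPM of Lrg1, beside 320.0 CPM measured. Whether it did was not tested. For other classes at 3 dpi the share of marker level was larger, at 2.38% for microglia, 1.68% for monocytes/macrophages and 1.075% for fibroblasts. In fixed proportions the microglial share would bring 2.93 CPM of Icam1, beside 302.8 CPM measured, and this was not tested either. The lists of other cell types moved as well: the 10 neutrophil markers summed to 139 CPM at 3 dpi and 3.14 CPM in sham, with Ly6g and Ltf at 0 at 3 dpi and Mmp9, Ly6g, Ngp and Camp at 0 in sham. Fibroblast markers, with Igf2 and Dpt at 0 in both libraries, came to 183 CPM at 3 dpi and 8.90 CPM in sham, and all 12 pericyte markers together came to 522 CPM at 3 dpi and 993 CPM in sham. The 5 erythrocyte markers, led by Hbb-bs, came to 711 CPM at 3 dpi and 51.3 CPM in sham, and they were the second-ranked list of cluster 19. The 9 monocyte/macrophage markers, mostly Fn1, came to 1482 CPM at 3 dpi and 769 CPM in sham, with Ccr2, Plac8, Chil3 and Arg1 at 0 in sham. The part of these cells' RNA in the members' levels was not tested.

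Shares of cells with a UMI depend on depth, so each cell was thinned to 2000 UMIs, which left out 29 shallower cells at 3 dpi and 228 in sham. Sele was then detected in 6.85% of the 365 remaining cells at 3 dpi [4.48 to 9.95] and in 0.170% of the 1175 in sham [0.0206 to 0.614], and Selp in 7.12% at 3 dpi and 0 of 1175 in sham, which allows a share of up to 0.255% by the limit of 3 counts and 0.313% by the exact interval, of cells with a UMI and not of cells that express the gene. Icam1 was seen in 32.6% [27.8 to 37.7] at 3 dpi and 12.6% [10.8 to 14.6] in sham, and Vcam1 in 14.0% [10.6 to 18.0] at 3 dpi and 2.72% [1.87 to 3.82] in sham. Icam2 alone was seen less often at 3 dpi, in 38.4% [33.3 to 43.6] of cells, against 53.0% [50.1 to 55.9] in sham. Ackr1 was seen in 16.2% [12.5 to 20.4] at 3 dpi and 0 of 1175 in sham, and Lrg1 in 28.8% [24.2 to 33.7] at 3 dpi and 0.0851% [0.00215 to 0.473] in sham. Without thinning, the 3 dpi shares were 22.1% for Sele, 16.2% for Selp, 60.9% for Icam1, 82.2% for Icam2, 34.8% for Vcam1, 27.9% for Ackr1 and 54.3% for Lrg1. The sham shares without thinning were 0.285% for Sele, 0 for Selp, 17.4% for Icam1, 69.8% for Icam2, 4.63% for Vcam1, 0.143% for Ackr1 and 0.214% for Lrg1. The unthinned share of Icam2 runs against its CPM and its thinned share, so no order is read from it. Oligodendrocyte-like cells, which should lack these genes, had thinned shares of at most 0.785% for any of them (Icam1 in sham). Their median depths before thinning were 9145.5 UMIs at 3 dpi and 7552.5 in sham. In sham, 0 of 4206 thinned oligodendrocyte-like cells had Sele, Selp or Lrg1, with an upper limit of 0.0877% for each, and 0.119% had Ackr1. The 0.170% for Sele in sham endothelial-like cells lay above that limit, though the intervals overlap. All 4 Sele UMIs of kept sham cells were in endothelial-like cells.

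**Figure D2:**
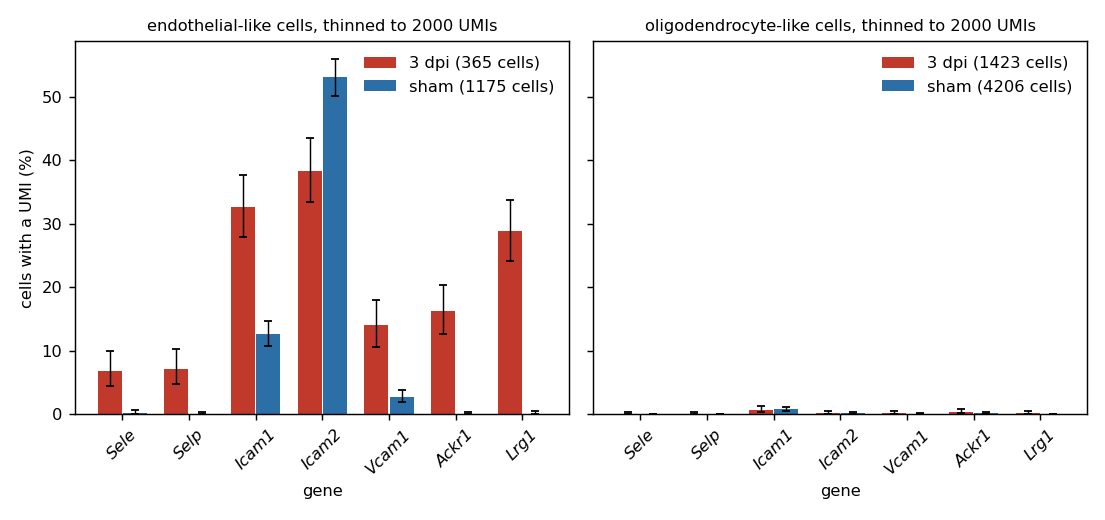
Percent of cells with at least 1 UMI of each gene after thinning every cell to 2000 UMIs, in endothelial-like cells (left panel) and oligodendrocyte-like cells (right panel), 3 dpi in red and sham in blue, with 95% Clopper-Pearson intervals. In endothelial-like cells 6 genes are seen more often at 3 dpi and Icam2 less often, while all shares in oligodendrocyte-like cells are below 1%.

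The 3 dpi cells were far from uniform. Counting down from the richest cell, 50% of all Selp UMIs in the class were reached with 8 of 394 cells and 50% of the Ackr1 UMIs with 13, and single cells held up to 53 Selp and 70 Ackr1 UMIs. Sele was similar, with 14 cells. Vcam1 needed 25 cells, Lrg1 29, Icam1 37 and Icam2 73, so the constitutive molecule was the most evenly spread. In sham the same share of the UMIs was reached with 29 of 1403 cells for Icam1, 11 for Vcam1 and 246 for Icam2. In thinned cells, at least 2 of the 7 genes were seen in 37.3% of cells at 3 dpi, against 7.57% in sham, and at least 4 in 9.04% at 3 dpi, a number no sham cell reached.

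Most of the genes were found in overlapping sets of 3 dpi cells. Of 59 thinned cells with Ackr1, 76.3% [63.4 to 86.4] also had Lrg1, against 19.6% [15.3 to 24.5] of 306 cells without it, and 27.1% [16.4 to 40.3] had Selp, against 3.27% [1.58 to 5.93]. Of 25 cells with Sele, 88.0% [68.8 to 97.5] also had Icam1 and 52.0% [31.3 to 72.2] Vcam1, against 28.5% and 11.2% of the 340 cells without Sele. For the selectins themselves, Selp was in 3 of 25 Sele-positive thinned cells (95% interval 2.55% to 31.2%) and in 6.76% [4.34 to 9.98] of Sele-negative ones, intervals that overlap. Over all 394 unthinned cells, Selp had 124 CPM in Sele-positive and 29.9 CPM in Sele-negative cells. As a description over 365 cells of 1 library, the phi coefficient was 0.46 for Ackr1 with Lrg1, 0.34 for Ackr1 with Selp, 0.32 for Sele with Icam1 and 0.30 for Sele with Vcam1. Icam2 had coefficients between -0.08 and 0.02 with the other 6. In sham, Icam1 was seen in 40.6% [23.7 to 59.4] of 32 cells with Vcam1 and 11.8% [10.0 to 13.8] of cells without.

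**Figure D3:**
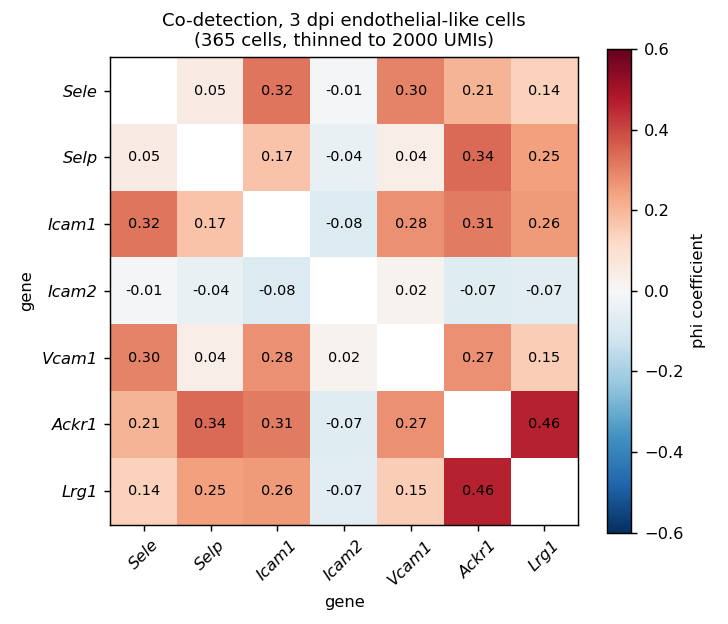
Phi coefficient of detection for each pair of genes over 365 endothelial-like cells of the 3 dpi library thinned to 2000 UMIs, where 0 means that detection of one gene says nothing of the other. Ackr1 with Lrg1 is highest at 0.46, Sele pairs with Icam1 and Vcam1, Selp with Ackr1, and Icam2 lies near 0 with all.

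The expressing cells differed in the vessel genes they carried. At 3 dpi, Slc38a5, an amino acid transporter of veins, had 324 CPM in Ackr1-positive and 64.1 CPM in Ackr1-negative cells. Over the 8 venous genes, the median log2 ratio of positive over negative cells was 1.31 for Ackr1, 1.03 for Lrg1 and 0.94 for Vcam1. It was 0.91 for Selp, 0.76 for Icam1, 0.54 for Sele and -0.33 for Icam2. Over the 7 capillary genes the medians lay between -0.73 (Selp) and 0.30 (Sele). No value over all measured genes was set beside these medians, so they are descriptions only. Of the 10 arterial genes, 8 were below 20 CPM in the 3 dpi class, so that list is not read there. Gja4, Gja5 and Fbln5 were below 20 CPM in the sham class, so no arterial count is given for sham either. In sham the Vcam1-positive cells had medians of 0.98 for the venous and -0.59 for the capillary genes. Their leading genes were Mgp, a matrix protein of large vessels (1196 CPM in positive and 80.4 CPM in negative cells), and Gkn3, an arterial marker (801 CPM in positive and 67.3 CPM in negative cells). At 3 dpi the leading genes of Vcam1-positive cells were Ackr1 (364 CPM in positive and 36.7 CPM in negative cells) and Selp (117 CPM in positive and 10.8 CPM in negative cells). Positive cells were deeper than negative ones, with medians of 19828 UMIs in Ackr1-positive and 10689 in Ackr1-negative 3 dpi cells, and the part of depth in these splits was not tested.

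Members also led the lists of genes raised in cells positive for another member. Ackr1 led in Icam1-, Vcam1-, Selp- and Lrg1-positive cells of the 3 dpi library, at 234 CPM in Icam1-positive and 14.3 CPM in Icam1-negative cells and at 637 CPM in Selp-positive and 58.4 CPM in Selp-negative cells. Slco2a1, a prostaglandin transporter, followed in Selp-positive cells (111 CPM, against 10.5 CPM in negative cells). Sele-positive cells were led by Cxcl10, an interferon-induced chemokine, with 65.6 CPM, against 8.94 CPM in Sele-negative cells. Cxcl10 also led in sham Icam1-positive cells, with 60.8 CPM, against 0.968 CPM in Icam1-negative ones. Icam2-positive 3 dpi cells were instead led by the division genes Cdca8 and Top2a (84.0 and 137 CPM in positive cells, 10.5 and 24.5 CPM in negative cells). The values of the 70 Icam2-negative cells rest on 3 UMIs of Cdca8 and 7 of Top2a. Those cells had a median of 2914 UMIs, against 17046.5 in Icam2-positive cells, and the part of depth was not tested.

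Cells were next split by UMIs of the vein genes Vwf, Slc38a5 and Nr2f2 and the artery genes Gkn3, Hey1, Sema3g, Vegfc and Bmx. This split was chosen after the values above were seen. Cells with at least 2 vein genes and no artery gene were 133 of 394 at 3 dpi and 211 of 1403 in sham, and cells with at least 2 artery genes and at most 1 vein gene were 12 at 3 dpi and 193 in sham. Deeper cells meet such a rule more easily, and vein-gene cells had medians of 15075 UMIs at 3 dpi and 5189 in sham, so the shares of cells are not compared. The genes of the rule also differed between the libraries. Vwf had 346 CPM at 3 dpi and 146 CPM in sham, Slc38a5 156 and 349 CPM, and Nr2f2 65.1 and 52.5 CPM. Each artery gene of the rule was lower at 3 dpi. The groups therefore need not be the same vessels in both libraries, and their part in the values below was not tested. In the vein-gene cells Icam1 had 424 CPM [399 to 451] at 3 dpi and 342 CPM [311 to 376] in sham, a ratio of 1.24 [1.11 to 1.39]. In the cells of neither kind the ratio was 2.36 [2.09 to 2.67]. These ratios describe cells that met the rule and not the change in veins. Vcam1 in vein-gene cells was at 142 CPM [127 to 157] at 3 dpi and 75.3 CPM [60.9 to 92.2] in sham. The on-demand genes behaved otherwise: sham vein-gene cells held 1 UMI of Ackr1, 2 of Lrg1, 3 of Sele and 0 of Selp in 1247788 UMIs, while 3 dpi vein-gene cells held 605, 1100, 143 and 183 in 2493435.

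Artery-gene cells were lower than vein-gene cells in most members at 3 dpi. In sham they were lower in Icam1 but not in Icam2 or Vcam1, and the other members were near 0 in both kinds of cell. At 3 dpi the 12 such cells had 101 CPM [69.5 to 142] of Icam1, 15.3 CPM [4.97 to 35.7] of Sele, 76.5 CPM [49.5 to 113] of Lrg1, 1 UMI of Ackr1 and 0 of Selp, and in sham the 193 such cells had 37.6 CPM [26.2 to 52.2] of Icam1. Vcam1 in artery-gene cells had 48.9 CPM [28.0 to 79.5] at 3 dpi and 76.2 CPM [59.5 to 96.1] in sham, a ratio of 0.642 [0.349 to 1.12], an interval that includes 1. Its sham level there was close to its 75.3 CPM in vein-gene cells, against 19.7 CPM [15.4 to 24.9] in the remaining cells. Icam2 was highest in sham artery-gene cells, at 479 CPM [435 to 525].

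**Figure D4:**
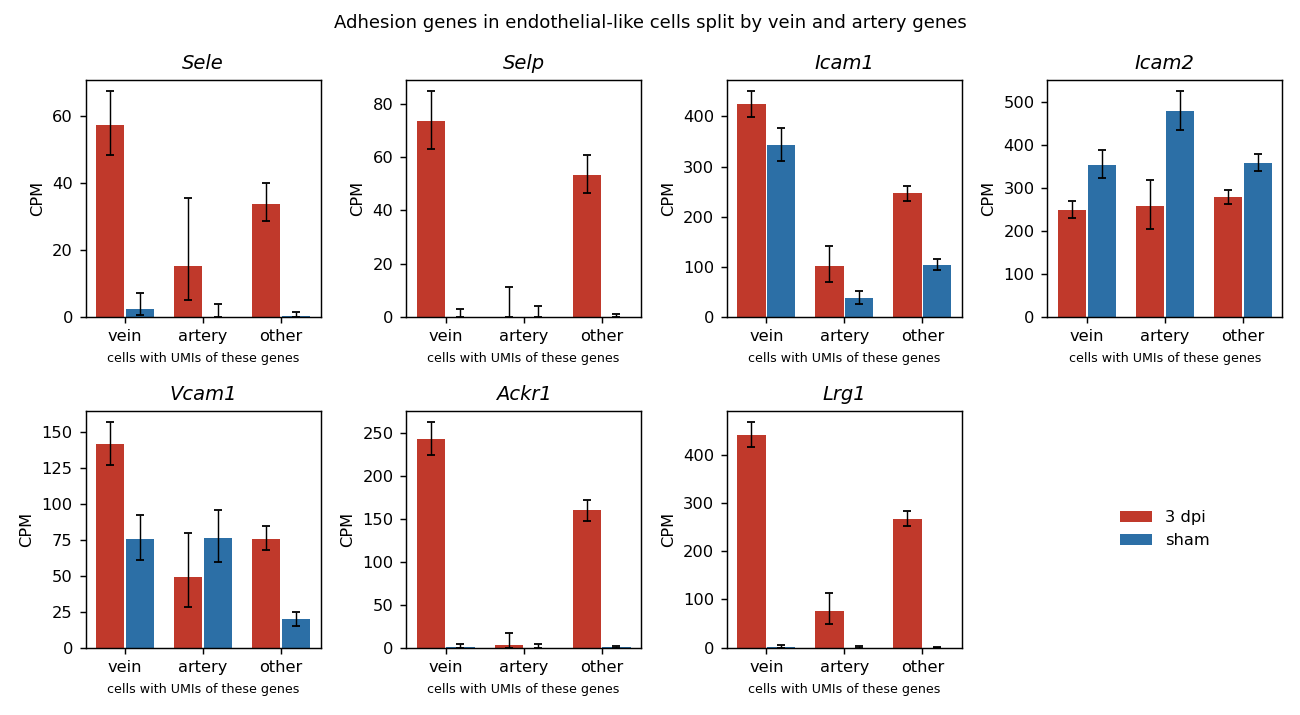
Level of each gene in CPM in endothelial-like cells split by vein and artery genes, 3 dpi in red and sham in blue, with 95% Poisson intervals and a separate scale for each gene. Icam1 in vein-gene cells stands at 424 CPM at 3 dpi and 342 CPM in sham, whereas Sele, Selp, Ackr1 and Lrg1 are near 0 in every sham bar.

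Outside the endothelium the genes divided into those nearly private to vessels and those shared with immune or stromal cells. Of all UMIs in kept 3 dpi cells, endothelial-like cells, 3.25% of cells, held 91.5% for Sele, 89.7% for Ackr1, 81.3% for Icam2, 78.2% for Selp and 54.6% for Lrg1, but 33.7% for Vcam1 and 22.3% for Icam1. The comparison with sham could be made in microglia-like, oligodendrocyte-like and precursor-like cells, which were the other classes with 50 or more cells on each side. In the remaining classes the values of the smaller library rest on few cells and are given without a comparison.

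**Figure D5:**
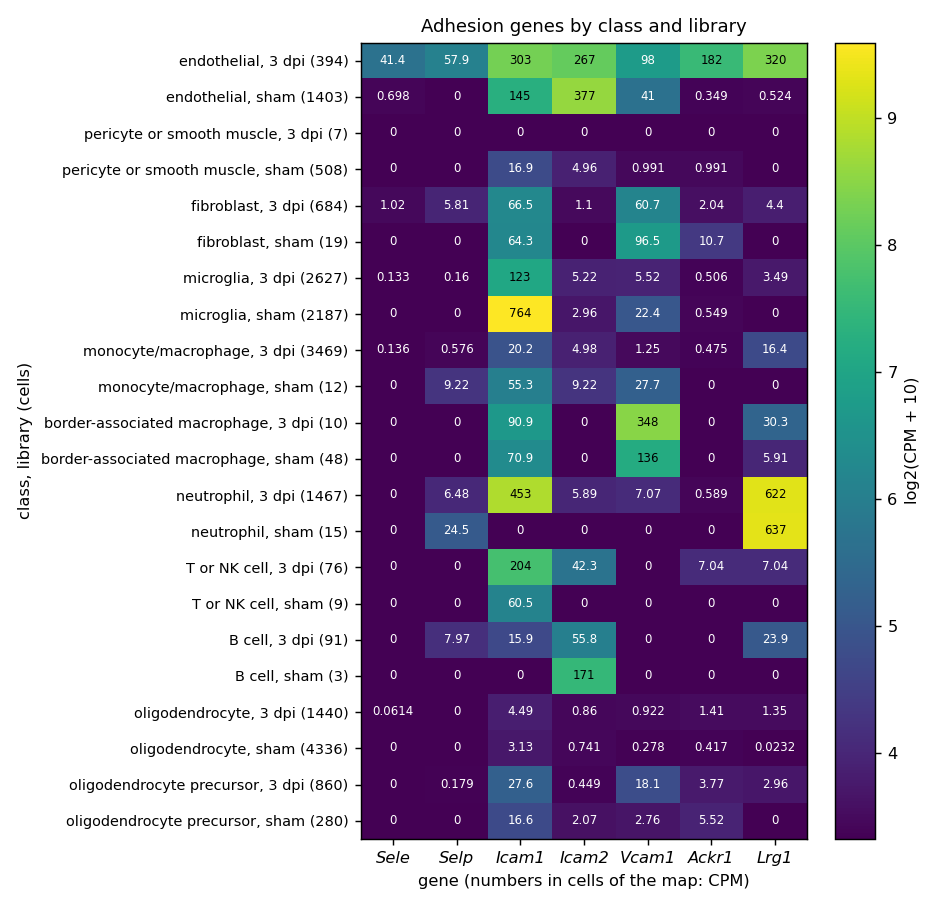
Level of each gene in each class and library, coloured by log2(CPM + 10) with the CPM written in, 3 dpi above sham within each class and cell numbers in brackets. Among the classes drawn, Sele, Selp and Ackr1 are highest in 3 dpi endothelial cells, Icam1 is highest in sham microglia, and Lrg1 is high in neutrophils and 3 dpi endothelial cells.

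Icam1 was a myeloid as well as a vascular transcript. Microglia-like cells had 123 CPM at 3 dpi and 764 CPM in sham, a log2 ratio of -2.54. The class was made of different clusters in each library, mainly clusters 6, 7 and 12 at 3 dpi (938, 921 and 763 cells) and clusters 1 and 28 in sham (2091 and 87 cells). Icam1 ran from 56.9 CPM to 233 CPM over the main 3 dpi clusters, and had 770.5 CPM in cluster 1 and 73.1 CPM in cluster 28 in sham. The part of this naming in the ratio was not tested. Both Icam1 and Vcam1 were lower in this class and the other 5 members were below 20 CPM in both libraries, where 16.6% of 6215 measured genes were lower, 11.7% higher and 28.2% either. Microglia held 48.5% of all Icam1 UMIs of kept cells at 3 dpi and 84.2% in sham. At 3 dpi neutrophil-like cells had 453 CPM, fibroblast-like cells 66.5 CPM and monocyte/macrophage-like cells 20.2 CPM. Border-associated macrophages had 90.9 CPM in 10 cells at 3 dpi and 70.9 CPM in 48 sham cells. Pericyte- or smooth muscle-like cells had 0 UMIs in 7 cells at 3 dpi, a class too small to read, and 16.9 CPM [9.82 to 27.0] in 508 sham cells.

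Vcam1 was shared with stroma. Fibroblast-like cells had 60.7 CPM [56.5 to 65.2] at 3 dpi, where 36.8% of 684 cells had a UMI and the class held 37.9% of the library's Vcam1 UMIs, and 96.5 CPM [44.1 to 183] in 19 sham cells. Border-associated macrophages had 348 CPM [221 to 523] in 10 cells at 3 dpi and 136 CPM [86.1 to 204] in 48 sham cells. Microglia-like cells had 5.52 CPM at 3 dpi and 22.4 CPM in sham, a log2 ratio of -1.06. Oligodendrocyte precursor-like cells had 202 UMIs and 18.1 CPM at 3 dpi and 4 UMIs and 2.76 CPM in sham, below the 20 CPM needed for a call. Icam1 (27.6 CPM at 3 dpi and 16.6 CPM in sham) was the only member at that level in precursor-like cells and did not pass the rule, and no member reached it in oligodendrocyte-like cells. The background of calls was 7.29% higher, 13.7% lower and 21.0% either in precursor-like cells, and 4.71% higher, 3.76% lower and 8.47% either in oligodendrocyte-like cells. Sham pericyte-like cells had 1 UMI of Vcam1 in 1008686.

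Lrg1 and Icam1 were the members with the highest levels in neutrophils. For Lrg1, neutrophil-like cells had 622 CPM [585 to 661] at 3 dpi and 637 CPM [416 to 934] in the 15 cells of the sham library, and held 25.7% of the Lrg1 UMIs at 3 dpi. Monocyte/macrophage-like cells had 16.4 CPM at 3 dpi, fibroblast-like cells 4.40 CPM, and sham pericyte-like cells 0 UMIs. Selp reached 5.81 CPM [4.57 to 7.30] in 3 dpi fibroblast-like cells and 6.48 CPM [3.24 to 11.6] in neutrophil-like cells. Sele and Ackr1 stayed at or below 1.02 and 2.04 CPM in the fibroblast, microglial, monocyte/macrophage and neutrophil classes of the 3 dpi library. Of the 67 Ackr1 UMIs in kept sham cells, 2 were in endothelial-like cells, 18 in oligodendrocyte-like cells, 25 in unnamed clusters and 7 in the 22 neuron-like cells (32.9 CPM [13.2 to 67.8]). Icam2 was seen beyond the endothelium at 42.3 CPM in T or NK cell-like and 55.8 CPM in B cell-like cells at 3 dpi, from 6 and 7 UMIs, and in sham pericyte-like cells at 4.96 CPM.

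The leukocyte partners of these genes were read in the classes with at least 50 cells. The LFA-1 chain Itgal was highest in 3 dpi T or NK cell-like cells (155 CPM [97.1 to 235]) and then in neutrophil-like cells (76.0 CPM), and the shared beta-2 chain Itgb2 reached 294 CPM in neutrophil-like and 272 CPM in monocyte/macrophage-like cells at 3 dpi. Itga4, the VCAM1-binding chain, was highest in T or NK cell-like cells (261 CPM), and Selplg, the main P-selectin ligand, in sham microglia-like cells (2049 CPM) followed by T or NK cell-like cells at 3 dpi (542 CPM). Of chemokines that ACKR1 binds, Cxcl2 was highest in 3 dpi neutrophil-like cells (9819 CPM), Ccl2 and Ccl7 in monocyte/macrophage-like cells (565 and 356 CPM), Cxcl1 and Cxcl5 in fibroblast-like cells (411 and 213 CPM) and Ccl5 in T or NK cell-like cells (2697 CPM).

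Endothelial-like cells themselves held some of these chemokines. Of the 6 ACKR1 ligands listed, 4 reached 20 CPM, each at 3 dpi only, so their count and median say nothing beyond that filter. Ccl5 had 12.7 CPM at 3 dpi and 0.349 CPM in sham, and Cxcl5 1.14 CPM at 3 dpi and 0 UMIs in sham. Ccl2, which draws monocytes, had 75.2 CPM at 3 dpi and 1.05 CPM in sham, and among those that draw neutrophils Cxcl1 had 154 CPM at 3 dpi and 19.7 CPM in sham, and Cxcl2 111 CPM at 3 dpi and 9.95 CPM in sham. Ccl7 had 24.4 CPM at 3 dpi and 0.349 CPM (2 UMIs) in sham. The classes named above held these chemokines at higher levels, and the part of their RNA in the endothelial values was not tested.

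Of the listed NF-kB response genes, 4 of 13 measured were higher and 0 lower (median log2 ratio 0.37). Those 4 reached 20 CPM at 3 dpi only, so they could only be called higher. They were Ccl2, Cxcl1, Tnfaip2 (49.9 CPM at 3 dpi and 0.524 CPM, 3 UMIs, in sham) and Tnfaip3, the feedback inhibitor of the pathway (62.5 CPM at 3 dpi and 18.9 CPM in sham). The inhibitor Nfkbia and the subunits Nfkb1 and Rela stayed within 2-fold, with Nfkbia at 1661 CPM at 3 dpi and 1533 CPM in sham. None of the 4 measured receptors of TNF, IL-1 and lymphotoxin passed the rule, with log2 ratios between 0.32 (Ltbr) and 0.82 (Tnfrsf1a). In the STAT3 acute phase list, 4 of the 12 measured genes were higher and 1 lower. Of these, Timp1, Serpina3n and Lcn2 reached 20 CPM at 3 dpi only and Lifr in sham only, so each could be called in 1 direction. Timp1, a protease inhibitor, had 146 CPM at 3 dpi and 0.349 CPM in sham, and Serpina3n, a serpin, 33.8 CPM at 3 dpi and 0.524 CPM in sham. Lcn2, which binds bacterial siderophores, had 50.4 CPM at 3 dpi and 6.81 CPM in sham, and the transcription factor Cebpb 104 CPM at 3 dpi and 30.7 CPM in sham. Lifr, a cytokine receptor, was lower, with 10.3 CPM at 3 dpi and 73.1 CPM in sham.

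Lrg1 is known to act through endothelial TGF-beta and BMP receptors, and of the 11 genes of that list 6 were lower and 0 higher (median log2 ratio -1.38). Id1 and Id3, targets of BMP signalling, had 874 and 666 CPM at 3 dpi and 3257 and 2195 CPM in sham, the receptor Bmpr2 124 CPM at 3 dpi and 467 CPM in sham, and the inhibitor Smad7 73.6 CPM at 3 dpi and 225 CPM in sham. The co-receptor Eng, with 534 CPM at 3 dpi and 912 CPM in sham, did not pass the rule, nor did Tgfbr2, with 137 CPM at 3 dpi and 272 CPM in sham. Immediate early genes, which cell dissociation can raise, were lower for 10 of 17 measured and higher for 1 in the same cells (a list added after the data were seen), with Jun at 1022 CPM at 3 dpi and 4507 CPM in sham. Their part in the members' levels was not tested.

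Junction and transmigration genes mostly stayed within the rule, with 2 of 13 measured higher, 1 lower and a median of -0.53. Of these genes, Pecam1, Cdh5, Esam and Emcn are among the markers that named the class, so their presence in both libraries is no separate result. Pecam1, through which leukocytes pass between cells, had 687 CPM at 3 dpi and 682 CPM in sham, and the junction cadherin Cdh5 637 CPM at 3 dpi and 505 CPM in sham. Plvap, which forms the diaphragms of leaky vessels, had 73.8 CPM at 3 dpi and 0 UMIs in sham, and the adhesion molecule Mcam 152 CPM at 3 dpi and 11.7 CPM in sham, while Jam2, a junction protein, was lower with 114 CPM at 3 dpi and 319 CPM in sham. The vessel-type lists moved with these results: all 7 capillary genes were lower at 3 dpi (median log2 ratio -2.30; Mfsd2a 42.5 CPM at 3 dpi and 390 CPM in sham), 6 of 8 measured arterial genes were lower and 1 higher (median -1.66), and 3 of 8 venous genes were higher and 2 lower (median 0.39; Aplnr 95.6 CPM at 3 dpi and 7.33 CPM in sham). The lower arterial genes and the capillary gene Slc16a4 reached 20 CPM in sham only, and the higher arterial gene and Aplnr at 3 dpi only. Each of them could be called in 1 direction. The part of vessel type in the members' ratios over the whole class was not tested. The split by vein and artery genes gives the members' values within cells grouped by those genes. Of the integrin chains and selectin ligands measured in endothelial-like cells, Itgb1 (511 CPM at 3 dpi and 306 CPM in sham) and Itga4 (19.0 CPM at 3 dpi and 29.2 CPM in sham) did not pass the rule. St3gal6, a sialyltransferase, was lower, with 89.2 CPM at 3 dpi and 337 CPM in sham.

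The genes with the most similar pattern over 14 sums of a class in a library, by Pearson r of log2(CPM + 10), are a description over sums that share their libraries. Icam2 followed Pecam1 (0.99), a pan-endothelial gene, and Icam1 followed Nfkbia (0.94), Skil and Il6ra. Sele was nearest to Kcne3 (0.998), Prss22 (0.99) and Sema3f, Ackr1 to Prss22 and Kcne3 (0.97 each) and Selp to Sele (0.92), where 1 high sum, the 3 dpi endothelium, sets the value. Vcam1 was nearest to Tspan18 and Gja1 (0.90 and 0.89), and Lrg1 to AA467197 (0.92), Ankrd37 and Adgrg3.

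Sex-linked transcripts allowed the pooled mice to be read apart in part. At 3 dpi, 117 endothelial-like cells were female-derived and 169 male-derived, and in sham 521 were female-derived and 348 male-derived. Vcam1 had 160 CPM [143 to 178] at 3 dpi and 51.9 CPM [42.8 to 62.4] in sham in female-derived cells, and 74.4 CPM [66.0 to 83.5] at 3 dpi and 64.0 CPM [52.5 to 77.4] in sham in male-derived cells. Icam1 had 411 CPM [384 to 440] at 3 dpi and 151 CPM [135 to 168] in sham in female-derived cells, and 268 CPM [251 to 284] at 3 dpi and 182 CPM [162 to 204] in sham in male-derived cells. Sele, Selp, Ackr1 and Lrg1 were above 30 CPM at 3 dpi in both and below 2 CPM in sham in both. The difference between the sexes was not tested, since each sex of each group was 1 pool.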

How the data were processed

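The authors deposited 1 table of raw UMI counts per gene and barcode for each library. The submitters' processing notes name Cell Ranger, Seurat and GRCh38, a human build, although the symbols are mouse symbols. No coordinates from the files were used, and promoters came from RefSeq. No table held mitochondrial genes (0 rows), so no such filter was run. Cells needed at least 500 UMIs and 200 genes, and 1476 3 dpi and 820 sham cells with the highest share of simulated doublet neighbours were removed. Both libraries were clustered together (30 principal components, 15 neighbours, Leiden resolution 1.0), which gave 32 clusters. The 7 genes, ribosomal genes and sex-linked genes were left out of the clustering. Genes of the fixed lists were left out unless they were class markers, as Pecam1, Cdh5, Esam and Emcn were. The immediate early genes, a list added later, were not left out as a list. A cluster was called X-like from its markers, by a rule set with the data seen, and a different naming could move values. The counts of each class were added up within a library and scaled to 1000000 (CPM). Cells are not replicates, and no test, p-value or SD was possible from 1 library a group. Genes at 20 CPM in at least 1 library were measured, and a 2-fold ratio with 10 CPM added was called higher or lower. Intervals are exact Poisson (CPM), Clopper-Pearson (shares) and exact conditional (ratios) at 95%, for counting error only. Software was leidenalg 0.10.2 with igraph 0.11.9, scikit-learn 1.9.0, matplotlib 3.10.9, scipy 1.17.1 and numpy 2.4.6 under Python 3.11.15, with tables read by pandas 2.3.3. The contrast was tested on simulated data. Members and lists were chosen with earlier results of these data known. Named were the 7 members, up to 4 genes of each list with the largest absolute log2 ratio, up to 3 with the most similar pattern and up to 5 that led in member-positive cells, beside further list genes chosen after their values were seen.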

Additional observations from a re-analysis of the deposited data

Results flagged for a closer look

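Icam1 and Vcam1 moved in opposite directions in 2 classes of the same libraries. In endothelial-like cells the log2 ratio of 3 dpi over sham was 1.01 for Icam1 and 1.08 for Vcam1, both higher at 3 dpi. In microglia-like cells it was -2.54 for Icam1 and -1.06 for Vcam1, both lower at 3 dpi. Microglia-like cells came from different clusters in each library, mainly 6, 7 and 12 at 3 dpi and 1 and 28 in sham, and endothelial-like cells likewise, mainly 19 at 3 dpi and 4 in sham. The difference between the classes was not tested, since each group was 1 library.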

How the results depend on the processing

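No paired analysis was possible because each group was 1 library with no replicates, and for the same reason no library could be left out. The count of members higher in endothelial-like cells lay between 4 and 6 in all alternatives tried, and none was lower in any. It was 5 with the stricter cell filter and 4 with doublets kept, in male-derived cells and in cells without myeloid marker UMIs (18 cells at 3 dpi and 1008 in sham, chosen after seeing the data). Sele, Ackr1 and Lrg1 kept their call in all 14 alternatives and Selp in 13, its log2 ratio being 0 in those 18 cells. The counts of all measured genes, 585 higher and 957 lower, moved to 1768 and 2170 with a marker gate (59 cells at 3 dpi and 18 in sham), to 1394 and 1744 in cells without myeloid marker UMIs and to 897 and 570 with median-of-ratios scaling, and 1467 were lower with 1 CPM added. The marker gate and the myeloid setting keep few cells of 1 library. The cause of the other moves was not tested. Depth limits the sham values: 3 counts over all sham endothelial-like cells correspond to 0.524 CPM, and a lower level of Selp was not detectable.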
